A study of Mus musculus with 12 samples.

Results

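The genes described here encode 10 proteins that hold actin filaments in place at the Z-disc of striated muscle, or at the dense bodies and membrane plaques that do this work in smooth muscle. They are the PDZ-LIM proteins Ldb3, Pdlim3 and Pdlim7, the synaptopodin relatives Synpo2 and Synpo2l, the filament-end protein Lmod1, the crosslinkers Actn1 and Flna, the adhesion protein Vcl and the LIM protein Csrp1. The list is fixed by name but was chosen with earlier results of these data known, so its counts beside those of all genes are a description. Each gene stands for itself through the probe set (the group of probes for a transcript) with the highest mean over 12 arrays. All 10 were among the 11716 genes tested. They had 24 probe sets that named no other gene, of which 15 passed the filter on low values (at least 3 of 12 arrays above 3.27 log2, the median of all values).

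Expression was measured on Affymetrix mouse arrays in small vessel fragments isolated from the cerebrum and the cerebellum of C57BL/6 mice aged 2 months. The 6 mice were 3 Notch3 knockouts and 3 littermate controls labelled as wildtype, and each mouse gave 1 array for each region, so that every one of the 4 groups held 3 arrays from separate mice. No treatment is given in the labels. The sources used here do not give how the Notch3 allele was made or whether it was lost in all cells. Values are on the log2 scale of the deposited table, and values of different genes are not set against each other because probe sets differ in how brightly they respond.

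In striated muscle, alpha-actinin ties the actin filaments of neighbouring sarcomeres together at the Z-disc, and PDZ-LIM proteins bind alpha-actinin there. Smooth muscle has no sarcomeres. Its filaments end in dense bodies in the cytoplasm and in adhesion plaques at the membrane, where vinculin and filamin link actin to integrins. In brain vessels these structures belong mainly to the contractile cells around arterioles, while alpha-actinin 1, filamin A and vinculin are also made by endothelium and many other cells. Notch3 is a receptor of those contractile cells and of pericytes.

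The array values matched the labels for genotype and tissue. Notch3 lay between 10.84 and 12.02 in the 6 control arrays and between 2.48 and 3.58 in the 6 knockout arrays. All 10 contractile markers of smooth muscle and 11 endothelial markers were measured above the filter. Of 13 markers of heart and skeletal muscle, where many of these proteins also occur, 10 exceeded the median of all values on no array, among them Ckm (at most 2.21), Acta1 (at most 3.02) and Ttn (at most 3.07). Of the rest, Myh7 exceeded it on 11 of 12 arrays (at most 4.35), Myh6 on 7 (at most 3.34) and Tnnt2 on 1 (at most 4.45). The sum of these 13 markers lay between 6.45 and 6.56 in control cerebral, 6.54 and 6.61 in control cerebellar, 6.47 and 6.72 in knockout cerebral and 6.50 and 6.65 in knockout cerebellar arrays (log2 of the summed linear values). Fewer cells of a type and less RNA per cell cannot be told apart in such bulk samples, and this holds for every difference below.

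The first question was how these genes differed between knockout and control vessels. In cerebral vessels 8 of 10 fell and 0 rose, where a gene is said to fall or rise when limma's adjusted p over all tested genes was under 0.05. Among all genes tested, 3.93% fell and 2.45% rose in that comparison. In cerebellar vessels 7 of 10 fell and 0 rose, beside 3.17% and 1.06% of all genes. Ldb3, Synpo2, Synpo2l, Pdlim3, Lmod1 and Flna fell in both regions, which makes 6 of 10, and 2.34% of all genes did so. With both regions averaged for each mouse, 3 knockout against 3 control mice, 8 of 10 fell and 0 rose, beside 3.0% and 1.02% of all genes. These counts include Synpo2l, which passed the filter only through its control arrays and so had to differ once it passed. Without it 7 of 9 fell in cerebral vessels, 6 of 9 in cerebellar vessels, 5 of 9 in both and 7 of 9 on mouse means. The median difference of the 10 genes was -0.95 in cerebral and -0.93 in cerebellar vessels, while the medians of all tested genes were -0.01 and 0.01. Without Synpo2l the medians were -0.86 and -0.73. In each region 5 of the 10 genes lay more than 2-fold lower, 4 of 9 without Synpo2l, beside 1.43% of all genes in cerebral and 1.36% in cerebellar vessels.

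**Figure D1:**
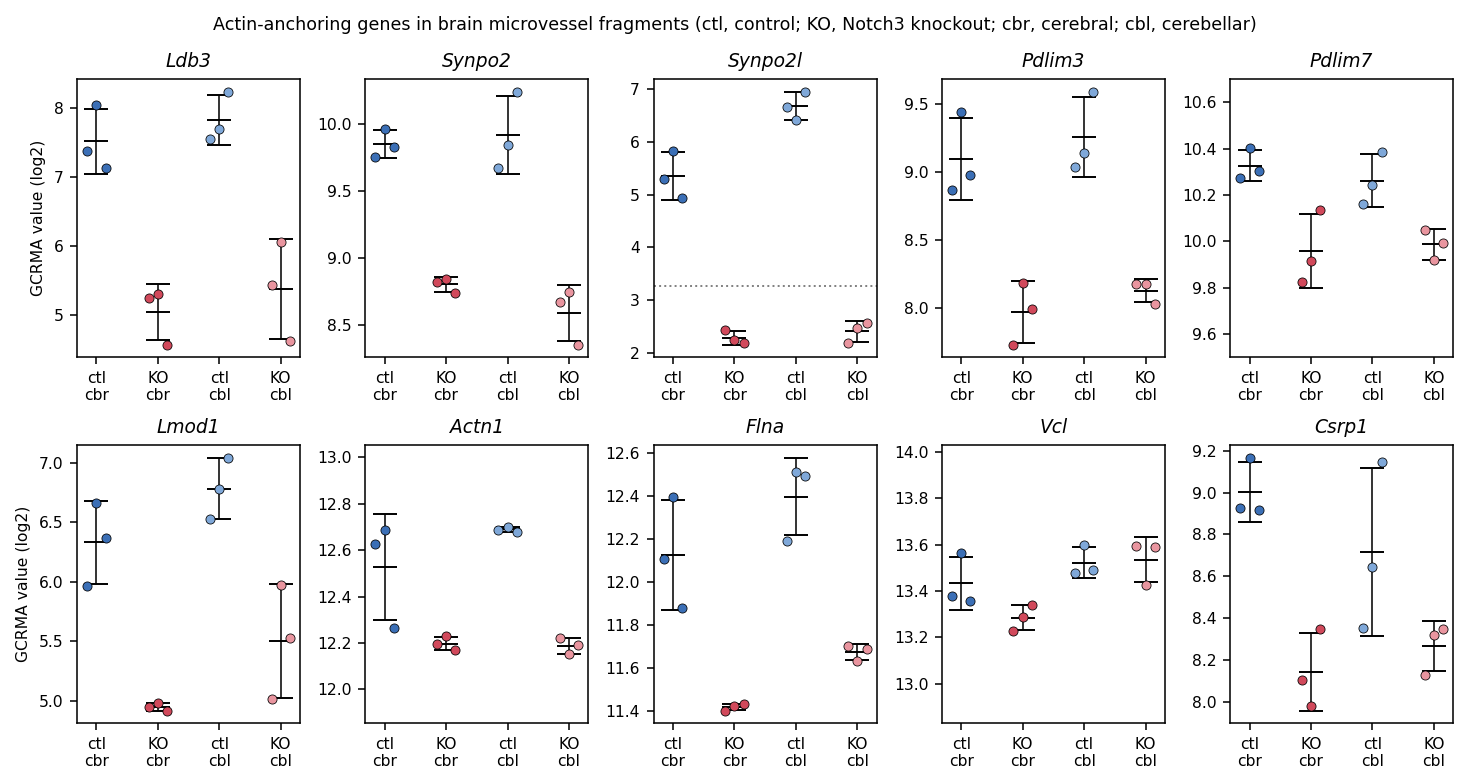
Each panel plots 1 gene, with the deposited log2 value on the vertical axis and the 4 groups on the horizontal axis; points are single arrays, the middle line is the group mean and the whiskers are 1 SD (n = 3 mice). The dotted line in the Synpo2l panel is the median of all values, 3.27. Each panel has its own axis range. All knockout arrays lie below all control arrays of the same region in every panel except cerebellar Vcl. Synpo2l passed the filter only through its control arrays.

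The groups did not overlap for any of the 10 genes in cerebral vessels: each knockout array lay below each control array. Among all tested genes 14.3% did so in this direction. In cerebellar vessels 9 of 10 genes were separated in this way, beside 11.7% of all genes. The exception was Vcl. On mouse means 9 of 10 were separated, Vcl again excepted, beside 14.7% of all genes. These counts include Synpo2l, which passed the filter only through its control arrays. Without it 9 of 9 genes were separated in cerebral vessels, 8 of 9 in cerebellar vessels and 8 of 9 on mouse means.

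Ldb3 is a PDZ-LIM protein (also called ZASP or Cypher) that binds alpha-actinin at the Z-disc. Its control values were 7.38, 8.04 and 7.14 in cerebral vessels and 7.55, 7.69 and 8.24 in cerebellar vessels. Knockout values were 5.25, 5.31 and 4.57 in cerebral and 5.43, 6.07 and 4.63 in cerebellar vessels. Every knockout array lay below every control array of either region, and the highest knockout value was the cerebellar array of replicate 2. Ldb3 fell by 2.47 (SE 0.37, adjusted p = 0.00334, each group with n = 3) in cerebral vessels, to 18.0% of the control level. In cerebellar vessels it fell by 2.45 (SE 0.37, adjusted p = 0.00374), to 18.3%. Its other probe sets, at 2.10 to 2.31 and at 2.58 to 2.63, stayed under the median of all values on every array, so that the change rests on 1 of 3 probe sets.

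Pdlim3, also known as ALP, is a smaller member of the same family that binds alpha-actinin too. Control arrays read 8.87, 9.44 and 8.98 in cerebral and 9.04, 9.14 and 9.59 in cerebellar vessels. Knockout arrays read 7.74, 8.19 and 8.0 in cerebral and 8.18, 8.18 and 8.03 in cerebellar vessels. The gap between the groups was of like size in both regions. Pdlim3 fell by 1.12 (SE 0.18, adjusted p = 0.00506) in cerebral and by 1.13 (SE 0.18, adjusted p = 0.00533) in cerebellar vessels, to 45.9% and 45.7% of control. It has a single probe set.

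Pdlim7, known as enigma, carries a PDZ domain and LIM domains as Ldb3 does and is made in many tissues. Control values were 10.27, 10.40 and 10.30 in cerebral and 10.16, 10.24 and 10.39 in cerebellar vessels. Knockout values were 9.83, 9.92 and 10.14 in cerebral and 10.05, 9.92 and 9.99 in cerebellar vessels. The groups were apart but close, with the highest knockout and the lowest control array near each other in both regions. Pdlim7 fell by 0.37 (SE 0.09, adjusted p = 0.0370) in cerebral vessels, to 77.6% of control. In cerebellar vessels the difference was -0.28 (SE 0.09, adjusted p = 0.133, 95% confidence interval -0.47 to -0.08) and was not called. The cerebral call was lost without any one of control cerebral replicates 1, 2 and 3 or of knockout cerebral replicates 1 and 2, with adjusted p of 0.0748, 0.109, 0.0736, 0.124 and 0.0835 in that order. Another probe set of Pdlim7 gave -0.37 in cerebral and 0.06 in cerebellar vessels, neither called (adjusted p = 0.359 and 0.931).

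Among the PDZ-LIM members in cerebral vessels Ldb3 thus had the largest difference, followed by Pdlim3 and then Pdlim7. The 95% intervals of Ldb3 in cerebral vessels (-3.30 to -1.65), of Pdlim3 (-1.52 to -0.72) and of Pdlim7 (-0.56 to -0.17) did not overlap. These are descriptions of each gene's own difference, and no test between genes was made.

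**Figure D2:**
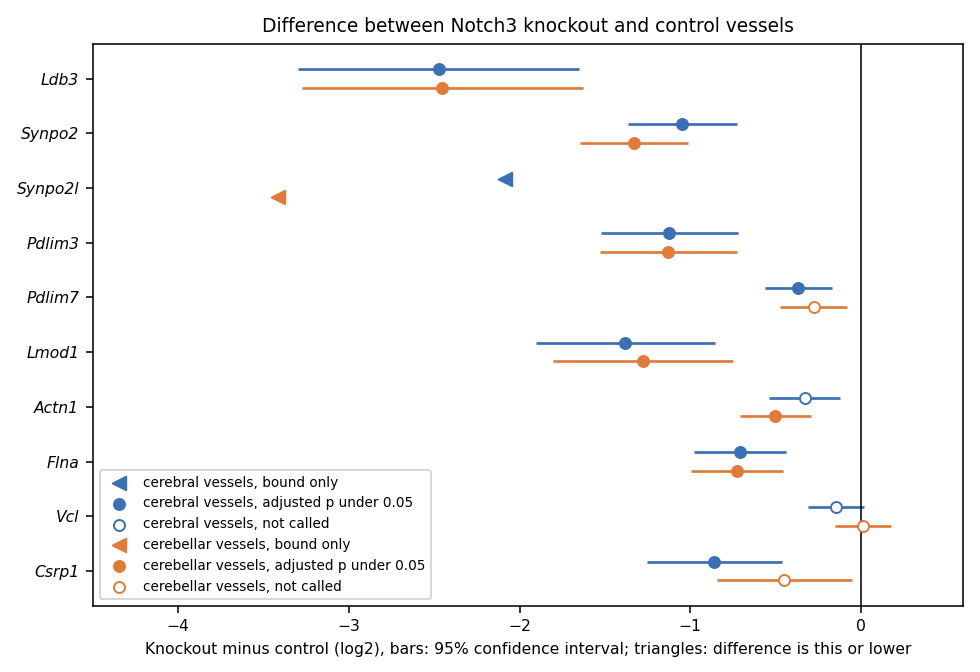
Points give the knockout minus control difference (horizontal axis, log2) of each gene in cerebral and cerebellar vessels, and bars give its 95% confidence interval from the limma fit over 12 arrays. Filled points passed an adjusted p of 0.05. The triangles of Synpo2l, whose knockout arrays all lay under the median of all values, mark a bound, so that its difference is this or lower. Ldb3 has the lowest measured differences, -2.47 and -2.45, and Vcl lies near zero.

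Synpo2 (myopodin) and Synpo2l (CHAP) are related actin-bundling proteins that bind alpha-actinin. Synpo2 read 9.75, 9.96 and 9.83 in control cerebral and 9.67, 9.84 and 10.24 in control cerebellar vessels. Knockout values were 8.82, 8.85 and 8.74 in cerebral and 8.67, 8.74 and 8.35 in cerebellar vessels. The 3 knockout cerebral arrays lay close together, and no knockout array of either region reached the lowest control array. Synpo2 fell by 1.05 (SE 0.14, adjusted p = 0.00192) in cerebral and by 1.33 (SE 0.14, adjusted p = 0.000390) in cerebellar vessels, to 48.4% and 39.8% of control. A dimmer probe set differed by -0.66 and -0.65 (adjusted p = 0.0790 and 0.105) and another by -0.69 and -0.50 (adjusted p = 0.237 and 0.465) in cerebral and cerebellar vessels. All 3 probe sets gave negative differences and only the brightest passed the test; the remaining probe set stayed under the median of all values on every array.

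Synpo2l was above the median of all values in control vessels alone. Its control values were 5.29, 5.84 and 4.94 in cerebral and 6.67, 6.43 and 6.96 in cerebellar vessels. In knockout vessels it read 2.42, 2.24 and 2.18 in cerebral and 2.18, 2.46 and 2.57 in cerebellar vessels. Every knockout array lay under the median of all values, so the fold is a lower bound, computed against 3.27, and no test of it is given. In cerebral vessels, with group means of 5.36 in control and 2.28 in knockout arrays, Synpo2l was at least 4.25-fold lower. In cerebellar vessels, with means of 6.69 and 2.41, it was at least 10.7-fold lower. On the mouse means it was at least 6.74-fold lower. The cerebral bound is under the 5.56-fold measured for Ldb3, so the order of the 2 genes there is not known. The other 3 probe sets of Synpo2l stayed between 1.69 and 3.19 on all arrays. The result therefore rests on 1 of 4 probe sets, and the suffix of its name marks probes that can match more than 1 transcript.

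Lmod1, leiomodin 1, starts actin filaments and sits near their slow-growing ends in smooth muscle. It read 5.97, 6.66 and 6.37 in control cerebral and 6.52, 6.78 and 7.04 in control cerebellar vessels. Knockout arrays read 4.95, 4.99 and 4.92 in cerebral and 5.02, 5.97 and 5.53 in cerebellar vessels. The knockout cerebral arrays were almost equal, and the cerebellar ones were more spread, with replicate 2 the highest. Lmod1 fell by 1.38 (SE 0.24, adjusted p = 0.00723) in cerebral vessels, to 38.5% of control, and by 1.28 (SE 0.24, adjusted p = 0.0131) in cerebellar vessels, to 41.3%. The cerebellar call was lost without control cerebellar replicate 3 (adjusted p = 0.0508) and with only the 6 cerebellar arrays in the fit (adjusted p = 0.0664).

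Actn1, the non-muscle alpha-actinin found in dense bodies and adhesions, showed a small difference. Control values were 12.63, 12.69 and 12.27 in cerebral and 12.69, 12.70 and 12.68 in cerebellar vessels. Knockout values were 12.19, 12.23 and 12.17 in cerebral and 12.22, 12.15 and 12.19 in cerebellar vessels. One control array, cerebral replicate 3, stood apart from the other control arrays and close to the knockouts. Actn1 fell by 0.50 (SE 0.09, adjusted p = 0.0133) in cerebellar vessels, to 70.6% of control. In cerebral vessels the difference of -0.33 (SE 0.09, adjusted p = 0.0673) was not called. It was called without control cerebral replicate 3 (-0.46, adjusted p = 0.000977), with array weights (-0.41, adjusted p = 0.00351), with centred arrays (adjusted p = 0.0495) and with the mean of its probe sets (adjusted p = 0.0432), and the cerebellar call was lost without control cerebellar replicate 2 (adjusted p = 0.0504). A dimmer probe set of Actn1 gave -0.19 and -0.22 in cerebral and cerebellar vessels (adjusted p = 0.236 and 0.221).

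Flna, filamin A, crosslinks actin and couples it to integrins at the membrane. It lies on the X chromosome. Control arrays read 12.11, 12.39 and 11.88 in cerebral and 12.19, 12.51 and 12.49 in cerebellar vessels. Knockout arrays read 11.40, 11.42 and 11.43 in cerebral and 11.70, 11.63 and 11.69 in cerebellar vessels. The knockout arrays of a region lay closer together than the control arrays, and the groups did not overlap. Flna fell by 0.71 (SE 0.12, adjusted p = 0.00723) in cerebral and by 0.73 (SE 0.12, adjusted p = 0.00716) in cerebellar vessels, to 61.2% and 60.5% of control. The cerebral call was lost when the fit held no arrays but the 6 cerebral ones (adjusted p = 0.0566).

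Vcl, vinculin, is the adaptor that links actin to talin and integrins at adhesion plaques. It read 13.38, 13.56 and 13.36 in control cerebral and 13.48, 13.60 and 13.49 in control cerebellar vessels. Knockout values were 13.23, 13.29 and 13.34 in cerebral and 13.59, 13.43 and 13.59 in cerebellar vessels. The cerebral groups were just apart and the cerebellar groups overlapped. The difference was -0.15 (SE 0.07, adjusted p = 0.300) in cerebral and 0.01 (SE 0.07, adjusted p = 0.959) in cerebellar vessels, and neither was called. The 95% intervals were -0.31 to 0.02 and -0.15 to 0.18. With arrays centred on their medians the cerebellar difference of Vcl was -0.0039.

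Csrp1, a LIM-only protein that binds alpha-actinin and zyxin in smooth muscle, fell in one region. Control values were 8.92, 9.17 and 8.92 in cerebral and 8.35, 8.64 and 9.15 in cerebellar vessels. Knockout values were 8.10, 7.98 and 8.35 in cerebral and 8.13, 8.32 and 8.35 in cerebellar vessels. The cerebral groups were clearly apart, while the lowest control cerebellar array, replicate 1, lay only just above the highest knockout array. Csrp1 fell by 0.86 (SE 0.18, adjusted p = 0.0186) in cerebral vessels, to 55.1% of control. The cerebellar difference of -0.45 (SE 0.18, adjusted p = 0.232, 95% interval -0.85 to -0.05) was not called. The cerebral call was lost without control cerebral replicate 2 (adjusted p = 0.0673) and without knockout cerebral replicate 1 (adjusted p = 0.0628). A dim second probe set gave -0.42 and -0.13 (adjusted p = 0.367 and 0.865).

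With both regions averaged for each mouse, Ldb3 fell by 2.46 (SE 0.28), Lmod1 by 1.33 (SE 0.18), Synpo2 by 1.19 (SE 0.11), Pdlim3 by 1.13 (SE 0.11) and Flna by 0.72 (SE 0.09). Csrp1 fell by 0.65 (SE 0.12, adjusted p = 0.0404) and Actn1 by 0.42 (SE 0.07, adjusted p = 0.0309). Pdlim7 missed the threshold at -0.32 (SE 0.06, adjusted p = 0.0564), and Vcl was at -0.07 (SE 0.06, adjusted p = 0.633). With 2 mice in a genotype these calls thinned out: 5 of 10 genes passed without control replicate 2 and 4 without knockout replicate 3. Without control replicate 2 or 3 or knockout replicate 1, 2 or 3, Csrp1 was not called (adjusted p of 0.0798 to 0.135). Its call was also lost with a covariate for Xist (adjusted p = 0.0683), with the mean of its probe sets (0.163), with no filter (0.107) and with quantile normalization (0.0506). That of Actn1 was lost with no filter (0.0656) and that of Lmod1 likewise (0.0580). Without control replicate 1 or 2 or knockout replicate 1, 2 or 3, Actn1 was not called (0.0760 to 0.124). Lmod1 was lost without control replicate 2 or 3 or knockout replicate 3 (0.0507 to 0.0672), and Flna without knockout replicate 3 (0.0539).

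Contractile genes of smooth muscle fell as well, and they give a scale for the anchoring genes. Of 10 contractile markers 8 fell in cerebral and 7 in cerebellar vessels, with medians of -0.72 and -0.80. Their differences ran from -2.22 to -0.23 and from -2.45 to -0.12, so that the lowest marker was close to Ldb3 (-2.47 and -2.45). Among these markers Actg2 was above the median of all values on only 5 of 12 arrays. Myh11, the myosin heavy chain of these cells, fell by 1.70 (SE 0.16) in cerebral vessels and fell by 1.78 (SE 0.16) in cerebellar vessels, and Acta2, smooth muscle actin, by 0.39 (SE 0.06) in each region. The mean of the 10 markers was taken on each array and subtracted from each anchoring gene. On this scale Ldb3 differed by -1.58 in cerebral and -1.53 in cerebellar vessels. For Synpo2l, taken at its bound, the value was -1.19 or lower and -2.49 or lower. Lmod1 (-0.48 and -0.35), Pdlim3 (-0.23 and -0.20) and Synpo2 (-0.15 and -0.40) lay slightly below the contractile mean. Flna (0.19 and 0.20), Actn1 (0.57 and 0.42), Pdlim7 (0.53 and 0.65) and Vcl (0.75 and 0.94) lay above it. A value on this scale does not show whether a gene itself changed. Csrp1 was at 0.04 and 0.48.

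Markers of other cells were followed beside these differences. Endothelial markers had medians of 0.04 in both regions, with 0 of 11 called by limma in either (1 and 0 at an unadjusted p under 0.05). Of 8 pericyte markers 4 fell in cerebral and 3 in cerebellar vessels, among them Cspg4 (-0.91 and -0.66), and Rgs5 was at -0.04 and -0.09 and not called. Of 9 microglia markers 3 rose in cerebral vessels (9 of 9 at limma's unadjusted p under 0.05), where the list's median was 0.82. In cerebellar vessels 0 of 9 microglia markers rose (1 at an unadjusted p under 0.05), and the list's median was 0.08. Their summed level was 15.8 to 16.3 in control cerebral, 16.4 to 16.9 in knockout cerebral, 15.6 to 15.9 in control cerebellar and 15.9 to 16.0 in knockout cerebellar arrays. The part of these cells in the differences of the anchoring genes was not tested. Platelet markers, of cells rich in filamin and vinculin, summed to 8.52 to 8.83 in control cerebral, 8.18 to 8.64 in knockout cerebral, 8.38 to 8.86 in control cerebellar and 8.53 to 10.3 in knockout cerebellar arrays, and 0 of 3 tested were called in either region (0 at an unadjusted p under 0.05 in both).

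Other genes of the same structures were followed in 7 lists. Of 57 tested relatives 9 fell and 2 rose in cerebral vessels, and 7 fell and 3 rose in cerebellar vessels. Their median differences were -0.03 in both regions. The cerebral count of 11 called relatives was 3 when the fit held the 6 cerebral arrays alone, 19 with array weights, 6 without control cerebral replicate 1 and 7 without knockout cerebral replicate 1 or 3. The cerebellar count of 10 was 6 without control cerebellar replicate 3.

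Of the 5 tested scaffolds that bind alpha-actinin or actin, 2 fell in cerebral and 4 in cerebellar vessels, and 0 rose. Palld (palladin) fell by 1.32 (SE 0.18, adjusted p = 0.00201) in cerebral and 1.24 (SE 0.18, adjusted p = 0.00302) in cerebellar vessels. Nexn (nexilin) fell by 0.95 (SE 0.11, adjusted p = 0.000619) and 0.94 (SE 0.11, adjusted p = 0.000672). Xirp1, an actin-binding repeat protein of muscle attachment sites, was at least 4.37-fold lower in cerebellar vessels, with means of 5.40 in control and 2.76 in knockout arrays. As with Synpo2l, all 3 knockout arrays of Xirp1 in each region lay at or under the median of all values, and it was not called in cerebral vessels. Xirp1 thus passed the filter only through control arrays, and it is counted among the 4 scaffolds and among the relatives that fell in cerebellar vessels. The other scaffolds that fell there were Palld, Nexn and Synpo. Synpo, synaptopodin, fell by 0.59 (SE 0.12, adjusted p = 0.0208) in cerebellar vessels.

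Close paralogs of the crosslinkers gave no call. Actn4, the other widely made alpha-actinin, was at -0.02 (SE 0.07) and 0.00 (SE 0.07), and Flnc, the muscle filamin, at 0.02 (SE 0.10) and 0.16 (SE 0.10), with none of these called by limma and 0 at an unadjusted p under 0.05. Among 10 other PDZ-LIM and LIM proteins, 2 rose in both regions. Fhl2, a LIM-only protein that can act as a transcriptional cofactor, rose by 0.48 (SE 0.12, adjusted p = 0.0350) and 0.995 (SE 0.12, adjusted p = 0.000656). Lmo7 rose by 0.54 (SE 0.10, adjusted p = 0.0116) and 0.60 (SE 0.10, adjusted p = 0.00764). Csrp2, the smooth muscle relative of Csrp1, fell by 0.35 (SE 0.06, adjusted p = 0.00483) in cerebral vessels.

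Of 20 tested focal adhesion genes, 3 fell in cerebral vessels, Zyx (-0.40), Bcar1 (-0.36) and Tgfb1i1 (-0.31), and 0 rose. In cerebellar vessels Tgfb1i1 fell by 0.26 and Lims2 rose by 0.51. Tln1, the talin partner of vinculin, was at -0.13 and -0.03 and was not called. Of 9 intermediate filament and membrane-link genes, Dmd (dystrophin) fell in both regions, by 0.61 and 0.54, and Plec (plectin) by 0.29 in cerebral vessels. Among 7 genes of filament ends 0 were called by limma in either region (4 and 2 at an unadjusted p under 0.05).

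**Figure D3:**
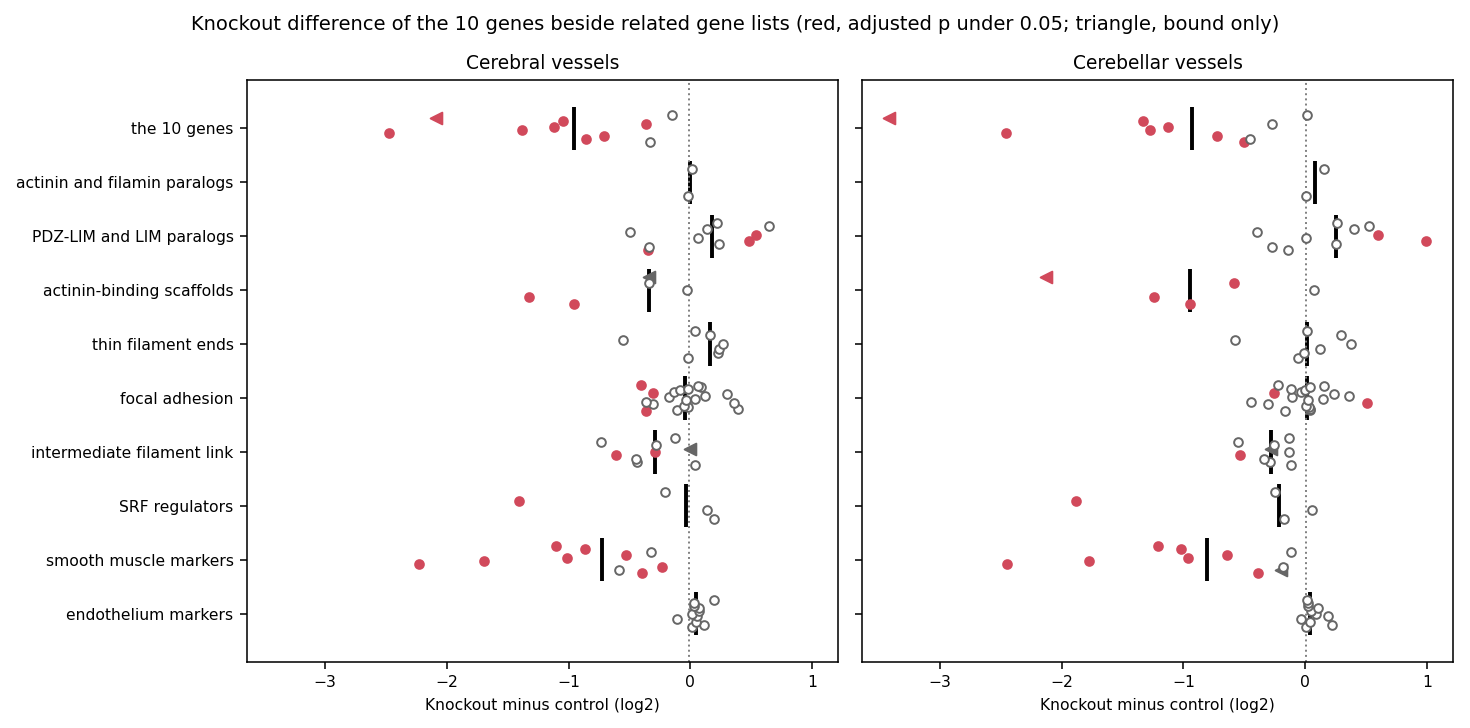
Each point is 1 gene, placed by its knockout minus control difference (horizontal axis, log2) in cerebral vessels on the left and cerebellar vessels on the right, with the gene lists in rows. Red points passed an adjusted p of 0.05, triangles mark genes with a bound only, black bars are list medians with such genes at their bound and the dotted line is the median of all tested genes. The 10 anchoring genes have medians of -0.95 and -0.93 and the smooth muscle markers of -0.72 and -0.80. The scaffolds have medians of -0.34 and -0.94, and the endothelial markers lie near zero.

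Genes of this kind are known targets of serum response factor, Srf, which binds the CArG box and is driven in smooth muscle by its coactivator myocardin, Myocd. Myocd fell by 1.41 (SE 0.23, adjusted p = 0.00547) in cerebral and by 1.88 (SE 0.23, adjusted p = 0.000914) in cerebellar vessels. Srf itself was at -0.21 (SE 0.06, adjusted p = 0.0842) and -0.25 (SE 0.06, adjusted p = 0.0659), and was not called. The related coactivators Mrtfa (0.20 and -0.18) and Mrtfb (0.14 and 0.06) were not called either. Notch receptors act through the factor RBPJ, whose core site is GTGGGAA, and CATTCC is the core of the MCAT element of muscle genes.

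Promoter windows of 250 bases before to 50 bases after each annotated start were taken from RefSeq (GRCm38.p6), and all 10 genes had at least 1 of 13 windows. On both strands, the CArG box stood in 3 of the 13 windows, those of Ldb3 and Vcl, and in 1.63% of 32851 windows of all genes. The windows of Ldb3 overlap, and their matches are the same site, counted once in each. By gene these were 2 of 10, beside 1.81% of 27025 genes. GTGGGAA stood in 2 of 13 windows, those of Actn1 and Csrp1, and in 6.38% of all windows (7.25% of genes). CATTCC stood in 4 of 13 windows, those of Pdlim3, Lmod1, Flna and Vcl, and in 14.7% of all windows (16.6% of genes), and overlapped none of the other matches. The stretches with the CArG box are shown for the members that hold it, Ldb3, which fell in both regions, and Vcl, which was called in neither. Those with GTGGGAA are shown as the members' only matches to the core site of the factor through which Notch receptors act. Capitals mark the match, and each runs 5′ to 3′ along the gene's strand.
Ldb3 (chr14:34588682-34588831, minus strand, CArG box): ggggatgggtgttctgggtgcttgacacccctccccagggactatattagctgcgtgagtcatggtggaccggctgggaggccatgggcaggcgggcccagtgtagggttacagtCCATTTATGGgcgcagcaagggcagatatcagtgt
Vcl (chr14:20929148-20929297, plus strand, CArG box): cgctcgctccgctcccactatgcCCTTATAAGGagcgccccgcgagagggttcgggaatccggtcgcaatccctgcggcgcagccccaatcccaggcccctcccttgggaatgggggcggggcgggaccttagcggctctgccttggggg
Csrp1 (chr1:135728917-135729016, plus strand, GTGGGAA on the other strand): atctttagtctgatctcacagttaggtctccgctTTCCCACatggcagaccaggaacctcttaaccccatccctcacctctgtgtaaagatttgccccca
Actn1 (chr12:80260514-80260613, minus strand, GTGGGAA): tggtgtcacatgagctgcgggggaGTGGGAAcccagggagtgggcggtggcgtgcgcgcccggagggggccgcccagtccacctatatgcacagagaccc

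The CArG box of Ldb3 began 35 bases before the more upstream of its listed starts and that of Vcl 227 bases before its start. Both genes with a CArG box lie on chromosome 14. In cerebral vessels Ldb3 fell to 18.0% of control, and Vcl was at 90.3% and not called. The part of the motifs in these differences was not tested. The genes with GTGGGAA, Actn1 and Csrp1, were each called in 1 of the regions. Synpo2l, Synpo2 and Pdlim7 held none of the 3 motifs in their 2, 1 and 1 windows. A match is a description of these letters only, and a gene without a match in its window may have one elsewhere. Synpo2l and Vcl also lie near each other, with 7 protein-coding genes between them. None of the 10 genes lies on chromosome 17, which carries Notch3.

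The second question was whether the regions differed. In control mice 1 of 10 genes, Synpo2l, was higher in cerebellar vessels, by 1.33 (SE 0.21, adjusted p = 0.0118), 2.51-fold, beside 1.95% of all genes that were higher. The higher cerebellar value was seen in 3 of 3 control mice, with differences within a mouse of 1.38, 0.59 and 2.02. The call was lost with only the 6 control arrays in the fit (adjusted p = 0.0626). Xirp1 was higher in cerebellar vessels too, by 1.79 (SE 0.31, adjusted p = 0.0176), but it also passed the filter only through control arrays. Its control cerebral mean lay only a little above the median of all values, so this difference is a description. In knockout mice Synpo2l lay under the median of all values in both regions, and no regional difference is given.

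In knockout mice 0 of 10 genes were called between regions by limma (2 at an unadjusted p under 0.05), beside 6.80% of all genes. Vcl was higher in cerebellar vessels in 3 of 3 knockout mice, by 0.36, 0.14 and 0.25, and the groups did not overlap, as was so for 12.9% of all genes in this direction. Its mean difference was 0.25 (SE 0.07, adjusted p = 0.0768). With the mouse as a block, since both regions come from the same animal, it was called (adjusted p = 0.0387 as a fixed and 0.0167 as a random block). Lmod1 was at 0.55 (SE 0.24, adjusted p = 0.209), and was higher in cerebellar vessels in 6 of 6 mice, as Flna and Vcl were. The share of all genes that were higher in 6 of 6 mice was not counted. The knockout groups of Lmod1 and Flna did not overlap either, which makes 3 of 10 genes, beside the same 12.9% of all genes. In controls Lmod1 was at 0.45 and Flna at 0.27, and neither was called. Synpo2 had lower cerebellar values in 5 of 6 mice.

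Markers of other cells also differed between regions. Of 8 pericyte markers 6 were higher in cerebellar vessels of control and 7 of knockout mice. In knockout mice 8 of 9 microglia markers were lower and 6 of 7 cerebellar neuron markers higher in cerebellar vessels, and in control mice 0 and 2 were called in these directions by limma (7 and 4 at an unadjusted p under 0.05). Of 7 fibroblast markers 2 were higher in cerebellar vessels of control and 4 of knockout mice, and of 7 astrocyte markers 2 and 3. Between genotypes 3 of 7 cerebellar neuron markers, Calb1, Gabra6 and Pvalb, rose in cerebellar vessels and 0 fell. Zic1, another of them, was at -0.50 (adjusted p = 0.105) and was not called, and the summed level of that list was 13.3 to 13.4 in control and 12.8 to 13.2 in knockout cerebellar arrays. Of this list, Calb1 was above the median of all values on 7 of 12 arrays, Pvalb and Pcp2 on 4 each and Gabra6 on 12. Counts that include Calb1, Pvalb or Pcp2 therefore rest partly on their passing the filter through the arrays where they were high. The part of these cells in the regional values of the anchoring genes was not tested.

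**Figure D4:**
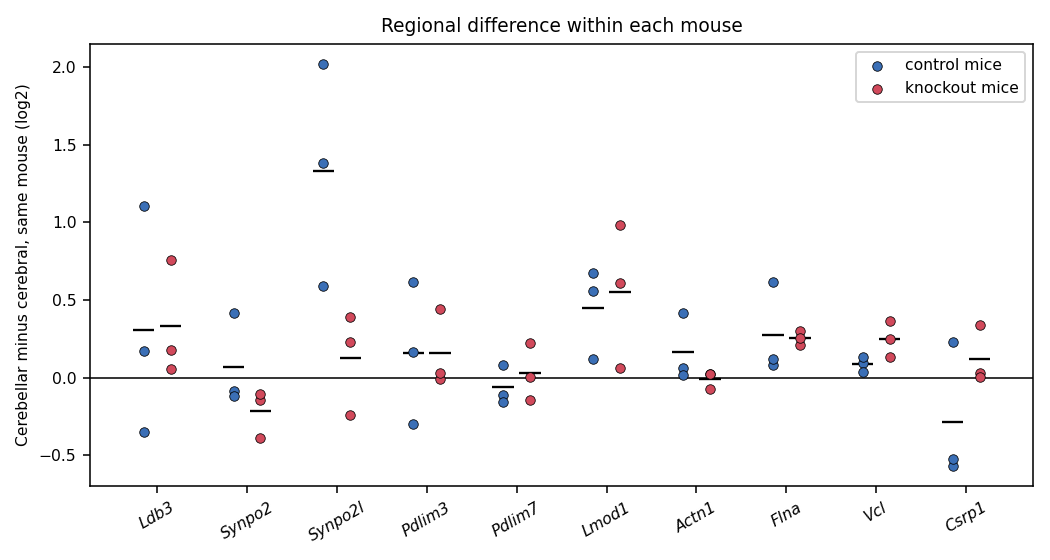
Points give the cerebellar minus cerebral difference (vertical axis, log2) within each mouse for the 10 genes, and short bars are the means of 3 control and 3 knockout mice. The knockout points of Synpo2l rest on values under the median of all values. Synpo2l has the largest mean among control mice, 1.33, and Vcl, Flna and Lmod1 lie above zero in all 6 mice. The share of all genes that do so was not counted.

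Of the 3 control mice, replicate 3 had the largest cerebellar minus cerebral difference for 10 of 10 anchoring genes. The same held for 10 of 10 contractile markers, against 30.6% of all tested genes. The mean of the contractile markers differed by 0.39 between the regions of this mouse, and by -0.04 and -0.04 in the other control mice. This pattern was looked for after its values were seen and is given with no test. Replicate 3 was also the control mouse without Xist above the median of all values. Among knockout mice, replicate 2, also without it, had the largest difference for 4 of 10 anchoring genes and 5 of 10 contractile markers. Knockout replicate 1, with Xist above that median, had it for 5 of 10 and 5 of 10. The part of Xist in the pattern was not tested.

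The third question was whether the effect of the knockout differed between regions. None of the 10 genes was called in the test of that difference by limma (1 at an unadjusted p under 0.05), beside 0.0427% of all genes. The gene at an unadjusted p under 0.05 was Synpo2l, whose knockout arrays lay under the median of all values in both regions, so that its difference of effects was not measured. Csrp1 was at 0.41 (interval -0.15 to 0.97), Synpo2 at -0.28, Actn1 at -0.17, Vcl at 0.16, Lmod1 at 0.10 and Pdlim7 at 0.09. Ldb3 (0.02), Flna (-0.02) and Pdlim3 (-0.0050) were near zero, although the interval of Ldb3 reached from -1.14 to 1.19.

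Values of the anchoring genes were mostly positively correlated from array to array. Over 12 arrays all 45 pairs had a positive Pearson r, with a median of 0.86 and a range of 0.17 to 0.96. After group means were taken out, 40 of 45 pairs kept a positive r, with a median of 0.48. The 12 arrays share mice and normalisation, so these values describe the arrays and carry no p. The r over 12 arrays includes the difference between genotypes, and the knockout values of Synpo2l lay under the median of all values. Pairs of other genes were not examined, so whether such correlations are particular to the anchoring genes is not known. The mean profile of the 10 genes contains each gene itself, and genes with larger differences weigh more in it. With that profile Synpo2l, Pdlim3 and Ldb3 correlated at 0.98, and Vcl at 0.40, values that partly follow from how it was built.

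The 5 genes outside the list whose values followed that mean profile most closely over the 12 arrays were Pln (r = 0.99), Grip2 (0.99), Gpr20 (0.99), Slc4a3 (0.99) and Ppp1r12b (0.99). Pln is phospholamban, which restrains the calcium pump of the sarcoplasmic reticulum, and Ppp1r12b is a regulatory subunit of myosin phosphatase. Grip2 is a PDZ scaffold, Gpr20 an orphan receptor and Slc4a3 an anion exchanger. Slc4a3 read 8.66 to 9.44 in the control and 6.21 to 7.14 in the knockout arrays. It fell by 2.52 (SE 0.15, adjusted p = 8.22e-06) in cerebral and 2.37 (SE 0.15, adjusted p = 1.05e-05) in cerebellar vessels. Ppp1r12b fell by 1.61 (SE 0.16, adjusted p = 0.000187) and 1.70 (SE 0.16, adjusted p = 0.000136). All 5 had been ranked on the same arrays, so their own differences are a description of that choice.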

How the data were processed

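Each deposited value is the log2 level of a probe set. The authors used GCRMA 2.32.0, a method of background correction, normalisation and probe summary, per the submitters' processing notes. They were used as deposited, without rescaling. The table held 45101 probe sets, and genes were named from the platform annotation with symbols updated through RefSeq. Of probe sets naming 1 gene with at least 3 of 12 arrays above 3.27, the brightest stood for its gene, which left 11716 genes. The number of arrays limits the precision.

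Tests used limma 3.58.1 on R 4.3.3 (lmFit, eBayes, two-sided, Benjamini-Hochberg over all genes, threshold 0.05) on 4 group means over 12 arrays (8 residual degrees of freedom), or on mouse means (4). The code was tested on simulated data. Named were all 10 members, up to 3 called genes per related list, marker genes that moved with a result and the 5 most alike profiles; other names, such as uncalled relatives, were picked with their values in view. The members and lists were chosen with earlier results of these data known. The regions of a mouse shared deviations from the group means (r of 0.37 to 0.70 over genes in 6 of 6 mice), and the replicate number in the titles was taken as the mouse. Xist was present or absent alike in both regions of 6 of 6 mice. It was absent, meaning not above the median of all values, in control replicate 3 and knockout replicate 2, and present in the other mice.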

Additional observations from a re-analysis of the deposited data

How the results depend on the processing

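Where anchoring genes fell, their differences were negative under every setting tried that tested them, with probe sets, filter, scaling, fit and left-out arrays changed 1 at a time. A filter at the 75th percentile left 7 of 10 members to test, without Ldb3, Synpo2l and Lmod1, of which 5 were called in cerebral and 4 in cerebellar vessels. On mouse means 5 were called with no filter. Leaving out 1 array or mouse gave 6 to 8 in cerebral, 6 to 7 in cerebellar vessels and 4 to 7 on mouse means. Between regions of control mice the count was 0 with the 75th percentile filter, which leaves out Synpo2l, and 0 with only 6 arrays. Called relatives numbered 19 with array weights and 3 with only 6 arrays in cerebral vessels, 6 with only 6 arrays in cerebellar vessels and 13 with a trended robust fit on mouse means; leaving out 1 array or mouse gave 6 to 12, 6 to 8 and 5 to 7. The causes of the other shifts were not tested.

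With the replicate number as a block, 8, 7 and 7 members were called in cerebral and cerebellar vessels and on mouse means, where Actn1 was lost (adjusted p = 0.0623); same-numbered mice of the 2 genotypes share only a number (r of -0.17 to 0.26). With the mouse as a fixed block, chosen after seeing the data, or as a random block, 1 member, Vcl, was called between regions of knockout mice.

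Over all genes, 310 to 1415 were called in cerebral vessels across settings (748 as reported), 337 to 742 in cerebellar vessels (495), 312 to 688 on mouse means (472), 160 to 1078 and 322 to 1947 between regions of control (268) and knockout mice (797), and 0 to 7 for the difference of effects (5). With 1 array or mouse left out these ranges were 439 to 870, 302 to 397, 237 to 473, 79 to 239, 366 to 1099 and 1 to 20 in the same order, with 79 without control cerebellar replicate 2 and 20 without knockout cerebral replicate 2. The share of cerebral calls that were lower was 61.6% as reported, 52.1% (quantile normalization) to 77.1% (only 6 arrays) across settings and 49.3% (without knockout cerebral replicate 2) to 72.5% with 1 array left out.

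Signs that turned belonged to uncalled values. Synpo2 between regions of control mice was -0.20 with the mean of probe sets, -0.27 and -0.39 with other probe sets and -0.092 to 0.19 with 1 array left out, and its difference of effects was 0.0064 and 0.18 with other probe sets. Actn1 between regions of knockout mice was 0.0098 with the mean of probe sets, 0.029 with another and -0.027 to 0.0076 with 1 array left out. Cerebellar Vcl was -0.0039 with centred arrays and -0.015 to 0.069 with 1 array left out, and cerebellar Pdlim7 was 0.064 with another probe set. With 1 array left out, regional values ran from -0.0061 to 0.33 for Pdlim3 in control mice, and from -0.039 to 0.12 for Pdlim7 and -0.014 to 0.70 for Ldb3 in knockout mice. The difference of effects then ran from -0.18 to 0.16 for Pdlim3, -0.32 to 0.40 for Ldb3, -0.13 to 0.35 for Lmod1 (-0.13 with array weights) and -0.15 to 0.11 for Flna. With 3 mice per genotype, differences near the spread between mice could not be resolved.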
